A study of Mus musculus with 32 samples.

Results

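Mitochondrial oxidation of long-chain fatty acids was followed through 10 mRNAs of the 32544 genes in the count table, chosen by function: the carnitine shuttle (Cpt1a, Slc25a20, Cpt2), the acyl-CoA dehydrogenases for very long, long and medium chains (Acadvl, Acadl, Acadm), both subunits of the mitochondrial trifunctional protein (Hadha, Hadhb), the matrix thiolase Acaa2 and the enoyl-CoA isomerase Eci1. Long-chain acyl groups cannot cross the inner mitochondrial membrane as CoA esters. CPT1 at the outer membrane moves them onto carnitine, the carrier encoded by Slc25a20 exchanges acylcarnitine for carnitine, and CPT2 returns them to CoA in the matrix, where repeated cycles of dehydrogenation, hydration, a second dehydrogenation and thiolysis release acetyl-CoA. The kidney cortex relies on this pathway because the proximal tubule takes most of the ATP for reabsorption from fatty acids.

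Kidney cortex was taken from 32 mice at 25 weeks of age, 1 library per mouse and 4 mice in each of 8 groups. All mice were C57BL/6J carrying the Col4a3tm1Dec allele, which disrupts a collagen chain of the glomerular basement membrane. Control mice were heterozygous (Col4a3+/-), so they carry the allele too, and Alport mice were homozygous (Col4a3-/-), a model of Alport syndrome with slowly progressing kidney disease. After grain-based chow until 10 weeks, mice of each sex and genotype received a purified control diet (vehicle) or that diet with nicotinamide riboside (NR, a precursor of NAD+) at 0.5% w/w, until tissue was taken. The groups are therefore male and female vehicle-treated controls, NR-treated controls, vehicle-treated Alport and NR-treated Alport mice. Total counts per library ranged from 16621944 to 27778797 with a median of 22071395. Levels are given as CPM, counts scaled to library size, with TMM scaling factors over the 32 libraries. Adjusted p is the Benjamini-Hochberg value of edgeR's quasi-likelihood F test over all genes tested, a gene is called at an adjusted p under 0.05, log2 fold changes are given ± SE, and group means ± SD with n = 4. The median log2 fold change of a list is given beside that of all genes tested. Shares of all genes called are those of the main edgeR fits, so counts by other fits have none beside them. The 10 members passed the low-count filter in each of the comparisons made.

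Col4a3 mRNA itself was read first, as a check of the labels. Its level was 201, 197, 181 and 151 CPM in male vehicle-treated controls and 59.3, 94.1, 75.2 and 159.6 in male NR-treated controls (replicates 1 to 4 in order). Male Alport mice had 56.5, 66.5, 54.6 and 83.2 on vehicle and 67.6, 58.6, 56.0 and 61.7 on NR. Female controls had 160.2, 140.1, 139.5 and 163 on vehicle and 113, 105, 124 and 122 on NR, and female Alport mice 57.7, 79.2, 59.7 and 60.1 on vehicle and 48.8, 50.8, 57.6 and 59.3 on NR. The Alport mice thus lay at 48.8–83.2 CPM, and every control outside the male NR group lay at 105 or more. Of the controls, 2 libraries, labelled male control NR replicates 1 and 3, lay inside the Alport range. Between NR and vehicle, Col4a3 was called lower in female controls (log2 fold change −0.38 ± 0.08, adjusted p = 0.0154). In male controls the value was −0.91 ± 0.25 and did not pass (adjusted p = 0.0675). In male vehicle-treated mice, the Col4a3 log2 fold change of Alport against control was −1.40 ± 0.14 (adjusted p = 7.25e-06) and in females −1.19 ± 0.11 (adjusted p = 3.57e-05). The table gives a single count for each gene, so reads from the disrupted part could not be counted apart from the rest. Set against Col4a4, the chain encoded beside it, a measure chosen after that overlap was seen, log2 Col4a3 minus log2 Col4a4 was −0.90 to −0.28 in the 16 controls and −1.77 to −1.28 in the 16 Alport mice, with no overlap. The 2 libraries had the lowest of the control values, −0.90 and −0.84. The labels were therefore kept, and the tests of NR in male controls are also given without the 2 libraries. The Y-linked Ddx3y was 48.0–85.8 CPM in the 16 males and 0.356–1.42 in the 16 females.

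The labelled tissue was checked by 13 proximal tubule markers, of which 0 were at 0 counts in any mouse, and Slc34a1, the sodium-phosphate cotransporter of that segment, was the most abundant. Their summed level was 19496 CPM in male vehicle-treated controls (18507–20838), 15725 in male NR-treated controls (12879–17865), 9142 in male Alport mice on vehicle (6619–11223) and 9521 on NR (4307–14114). In females the same sums were 16869 (15389–18028), 16450.0 (14876–18202), 8866 (7016–10854) and 9488 (8541–10872). The segment that relies most on these 10 enzymes was thus lower in the marker sums of Alport than of control groups, and in a bulk sample fewer cells of a type and less RNA per cell cannot be told apart. Among markers of tissue that could be taken with the cortex, Cyp11b2 of the adrenal had 0 counts in 32 of 32 mice, Lep of fat in 29, Adipoq in 26, Cps1 of liver in 26, Ahsg in 22, Cyp21a1 in 21, Ucp1 in 18 and Myh4 of skeletal muscle in 15. Others on the same lists were present in every mouse: of liver Serpina1a (427–6862 counts), Ttr (525–5793 counts) and Alb (37–649 counts), of muscle Acta1 (101–355 counts), Ckm (35–141 counts) and Mylpf (6–34 counts), of the adrenal Star (43–165 counts) and of fat Plin1 (1–45 counts). The remaining genes of these lists had counts in most mice. Tnnt3 of muscle had 0 counts in 9 mice and Cyp11b1 of the adrenal in 4. Of fat, Cidea had 0 counts in 8 mice, Cidec in 4 and Retn in 3. Whether such tissue was taken was not tested.

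Taking the mean log2 CPM of the 10 mRNAs as a plain summary, vehicle-treated Alport mice stood lowest and NR-treated controls highest in both sexes. It was 8.12 ± 0.19 in male vehicle-treated controls, 8.57 ± 0.04 in NR-treated controls, 7.48 ± 0.16 in vehicle-treated Alport and 7.90 ± 0.41 in NR-treated Alport males. The female groups had 8.08 ± 0.08, 8.45 ± 0.12, 7.43 ± 0.17 and 8.03 ± 0.21 in the same order. Males on NR with Alport genotype spread most, from 7.44 in replicate 1 to 8.36 in replicate 2.

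For 9 of the 10 mRNAs the highest group mean was in NR-treated controls and for each of the 10 the lowest was in vehicle-treated Alport mice. Cpt1a was the exception at the top: its order ran from male vehicle-treated controls (772 CPM) through male NR-treated, female vehicle-treated and female NR-treated controls to NR-treated Alport females, NR-treated Alport males, and vehicle-treated Alport males and females (365). Slc25a20, Cpt2, Acadvl, Acadl, Acadm and Eci1 were highest in male NR-treated controls, and Hadha, Hadhb and Acaa2 in female NR-treated controls. Below the NR-treated controls of both sexes, Cpt2 and Acadl continued through male vehicle-treated controls, NR-treated Alport males and females, female vehicle-treated controls and the vehicle-treated Alport groups. Slc25a20 and Acaa2 had NR-treated Alport females above both vehicle-treated control groups and NR-treated Alport males between the female and the male one, and Eci1 had NR-treated Alport mice of both sexes above them. Acadm and Hadhb kept all 4 control groups above all 4 Alport groups. Acadvl placed male vehicle-treated controls before NR-treated Alport males, female vehicle-treated controls and NR-treated Alport females, and Hadha placed NR-treated Alport females between female and male vehicle-treated controls. The ratio of the highest to the lowest group mean ran from 1.90 for Hadha to 3.27 for Acaa2. Of the 7 neighbouring pairs in each order, 6 overlapped in their single mice for Cpt1a, Slc25a20, Acadl and Hadha, and 7 for the other 6 mRNAs. The pairs that did not overlap were male NR-treated over female vehicle-treated controls for Cpt1a, male vehicle-treated controls over vehicle-treated Alport females for Slc25a20, male over female NR-treated controls for Acadl, and female over male vehicle-treated Alport mice for Hadha.

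**Figure D1:**
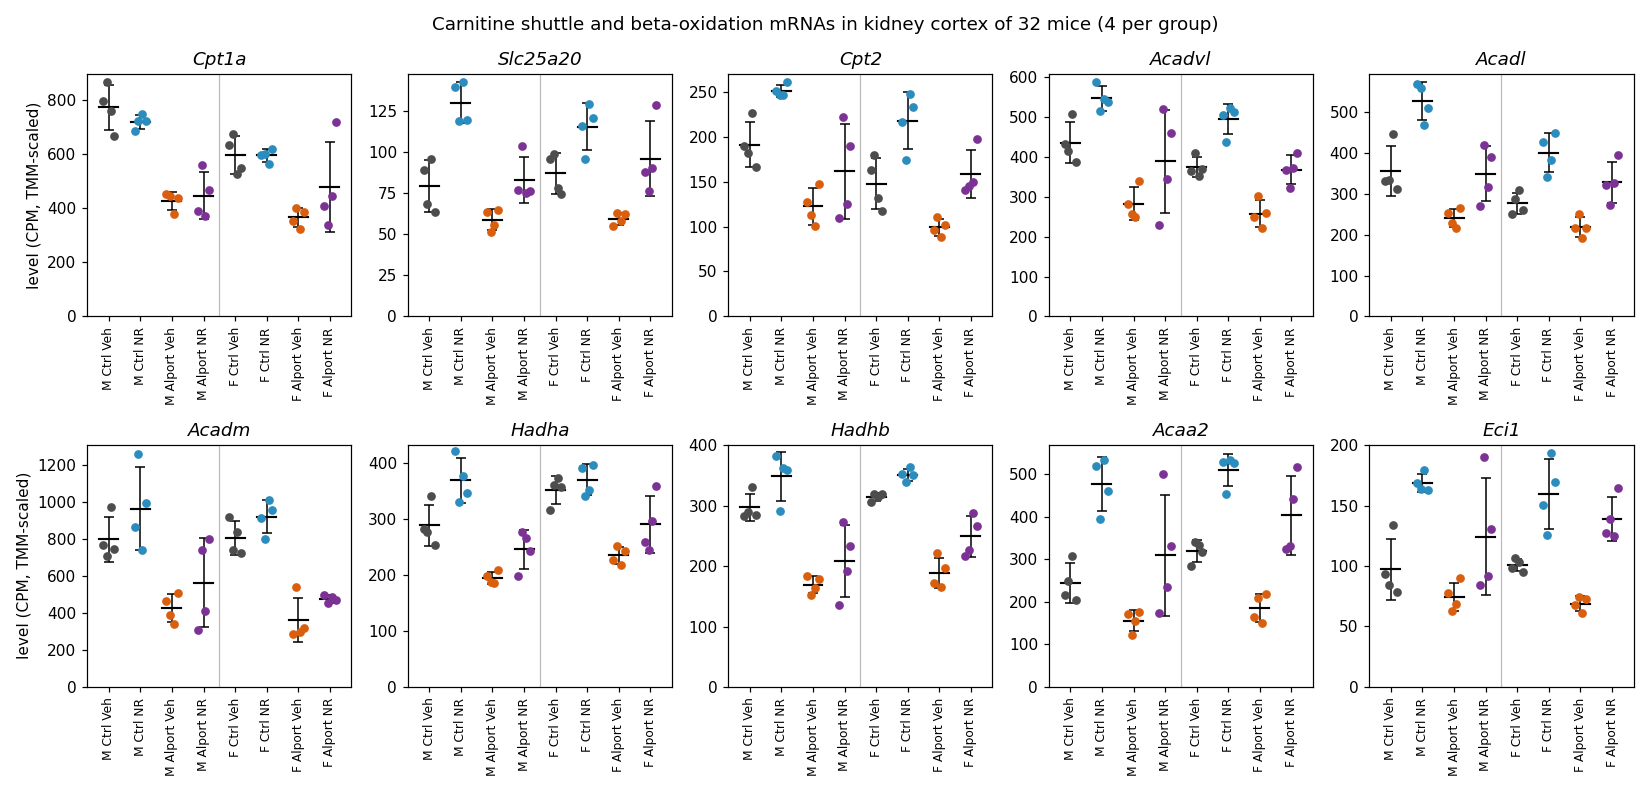
Level of each of the 10 mRNAs in CPM (y axis, TMM-scaled, from 0) in the 8 groups (x axis; M male, F female, Ctrl control, Veh vehicle). Points are single mice, the horizontal bar is the mean of 4 mice and the whiskers are ± SD; for Cpt1a the NR-treated controls lie within the range of vehicle-treated controls, while for Acaa2 and Eci1 they lie above it.

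The first question was how the pathway differs between untreated Alport and control kidneys. In males, 9 of the 10 mRNAs were lower in Alport mice and Eci1 did not pass, where 24.2% of all genes were called lower (3697 of 15286). The median log2 fold change of the 10 was −0.55, against 0.00 over all genes. All 4 Alport mice lay below all 4 controls for 8 of the 10, the exceptions being Slc25a20 and Eci1, as they did for 28.5% of all genes (4353 of 15286).

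In the shuttle, Cpt1a, the malonyl-CoA-sensitive entry enzyme, was 794, 866, 759 and 666 CPM in male vehicle-treated controls and 452, 444, 379 and 436 in Alport males. The lowest control was well above the highest Alport mouse, and the log2 fold change was −0.76 ± 0.10 (adjusted p = 8.16e-05). The carrier Slc25a20 was 89.2, 68.2, 95.7 and 63.6 in controls and 63.6, 51.3, 55.3 and 64.6 in Alport males. Here control replicate 4 lay inside the Alport range, so the groups overlapped, with a log2 fold change of −0.34 ± 0.13 and 3 of 4 Alport mice below every control (adjusted p = 0.0457). That call was lost by limma-voom (adjusted p = 0.0523) and without male control vehicle replicate 1 or 3 or male Alport vehicle replicate 1, 2 or 3 (log2 fold change −0.44 to −0.25 over the 8 mice left out in turn). Cpt2, the matrix-side transferase, was 166–226 CPM in controls and 101–148 in Alport males (log2 fold change −0.56 ± 0.12, adjusted p = 0.00266).

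Among the dehydrogenases, which open each cycle by chain length, Acadm (medium chains) was 766, 705, 972 and 742 CPM in male controls and 463, 386, 342 and 508 in Alport males. It had the largest log2 fold change of the 10, −0.82 ± 0.14 (adjusted p = 0.000477), with no overlap. Acadvl (very long chains) and Acadl (long chains) changed by −0.54 ± 0.12 and −0.48 ± 0.12 (adjusted p = 0.00230 and 0.00509), from control ranges of 387–508 and 314–447 CPM to Alport ranges of 249–340.4 and 216–265. Hadhb, the thiolase subunit of the trifunctional protein, was 283, 289, 331 and 285 in controls and 183, 152, 164 and 178 in Alport males. The groups were far apart, and the log2 fold change was −0.73 ± 0.09 (adjusted p = 3.66e-05). Its partner Hadha, which carries the hydratase and long-chain hydroxyacyl-CoA dehydrogenase, changed less, by −0.48 ± 0.10 (adjusted p = 0.00122). Acaa2, the matrix thiolase for shorter chains, was 216, 249, 309 and 204 in controls and 172, 122, 156 and 176 in Alport males, all 4 below the lowest control (log2 fold change −0.56 ± 0.14, adjusted p = 0.00660). Eci1, which shifts the double bond of unsaturated chains, was 93.6, 84.0, 134 and 78.1 in controls and 77.5, 63.0, 68.8 and 89.7 in Alport males, where Alport replicate 4 lay among the controls and the log2 fold change of −0.30 ± 0.16 did not pass (adjusted p = 0.147). Without male control vehicle replicate 3 the Eci1 value was −0.11.

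Females showed lower levels of all 10 mRNAs in vehicle-treated Alport mice, where 21.8% of all genes were called lower (3431 of 15709). The median log2 fold change was −0.54, against 0.00 over all genes, and for each of the 10 mRNAs the 4 Alport mice lay below the 4 controls, as for 23.7% of all genes (3726 of 15709). Cpt1a was 633, 675, 526 and 548 CPM in female controls and 351, 400.0, 324 and 387 in Alport females (log2 fold change −0.66 ± 0.10, adjusted p = 0.000573). Acadm was 916, 738, 837 and 721 in controls and 285, 537, 298 and 317 in Alport females, its replicate 2 standing well above the other Alport mice and still below every control. Its log2 fold change was −1.12 ± 0.20 (adjusted p = 0.00102), the largest of the 10. Slc25a20 and Cpt2 changed by −0.51 ± 0.10 and −0.54 ± 0.13 (adjusted p = 0.00166 and 0.00585), and Acadvl by −0.50 ± 0.10 (adjusted p = 0.00235). Acadl moved least, from 252–309.5 to 193–250.3 CPM (log2 fold change −0.30 ± 0.10, adjusted p = 0.0313). Without female control vehicle replicate 2 or 3 or female Alport vehicle replicate 1, 3 or 4 Acadl was not called, with an adjusted p of 0.0672 to 0.0913.

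Both mRNAs of the trifunctional protein were lower in Alport females, Hadha by a log2 fold change of −0.55 ± 0.08 from 315–373 to 217–252 CPM, and Hadhb by −0.70 ± 0.10 from 306–319 to 166–221 (adjusted p = 0.000511 and 0.000288). Acaa2 was 284, 342, 333 and 317 CPM in female controls and 165, 209, 150.2 and 218 in Alport females (log2 fold change −0.74 ± 0.13, adjusted p = 0.000888). Eci1 was 98.5, 107, 104 and 94.8 and 67.5, 74.6, 60.9 and 72.5, with no overlap (log2 fold change −0.51 ± 0.08, adjusted p = 0.000460).

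Whether the genotype effect differed between the sexes was tested as an interaction in the 16 vehicle-treated mice. Of the 10, 0 were called, where 0.532% of all genes were (86 of 16152). The count was also 0 by DESeq2 and limma-voom, and 0 of the 10 had an unadjusted p under 0.05 (1940 of 16152 genes). The interaction estimates, female minus male, ran from −0.33 ± 0.26 for Acadm to 0.15 ± 0.17 for Acadl, with adjusted p of 0.717 and 0.820. For Eci1, called in females and not in males, the estimate was −0.25 ± 0.20 (adjusted p = 0.715), so the sexes are not shown to differ there, nor shown to be alike.

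Another 25 genes of the pathway, listed for carnitine supply, malonyl-CoA, short-chain dehydrogenation, electron transfer and auxiliary steps, were set beside the 10. In Alport males 23 were called lower and 1 higher, with a median log2 fold change of −0.72, and in females 22 lower and 1 higher (−0.63). The carnitine importer Slc22a5 changed by −1.08 ± 0.11 in males and −0.99 ± 0.12 in females (adjusted p = 1.26e-05 and 0.000156), more than the 3 shuttle members. Cpt1b, the muscle form of CPT1, was 25.0 CPM on average in male controls and 14.3 in Alport males (log2 fold change −0.72 ± 0.12, adjusted p = 0.000358), and changed by −1.10 ± 0.21 in females (adjusted p = 0.00171). The gene called higher was Cpt1c, the CPT1 form known from neurons, at 1.24 CPM in male controls and 4.68 in Alport males (log2 fold change 2.002 ± 0.23, females 1.49 ± 0.29, adjusted p = 2.77e-05 and 0.00204). Bbox1, the last enzyme of carnitine synthesis, was low throughout and changed by −1.11 ± 0.21 and −1.27 ± 0.37. Acat1, the matrix acetoacetyl-CoA thiolase, changed by −1.20 ± 0.14 in males (adjusted p = 2.60e-05).

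Markers of other cell types moved with the genotype. In Alport males 12 of 13 proximal tubule markers were called lower and 1 higher, and in females 11 lower and 1 higher, with median log2 fold changes of −1.08 and −0.90. Of all genes, 26.8% were called higher in males (4093 of 15286) and 3768 of 15709 in females. Of the 7 fibroblast markers 7 were higher in both sexes, their summed level going from 81.4, 94.3, 84.6 and 105 CPM in male controls to 1066, 1198, 1451 and 911 in Alport males and from 129, 109, 196 and 171 to 1211, 718, 1197 and 845 in females, Col1a2 being the most abundant. Of the 8 immune markers, with Csf1r the most abundant over the 32 mice, 8 were higher in males and 7 in females, with sums of 55.8–74.1 and 248–327 CPM in male control and Alport mice and 71.5–112 and 215–332 in females. Markers of the loop, distal tubule and collecting duct, led by Umod, were called lower for 6 of 9 in each sex (mean sums 5741 and 4621 CPM in males, 7385 and 5916 in females). Podocyte markers, led by Podxl, were higher for 5 of 5 in males and 4 of 5 in females (mean sums 347 and 763, 512 and 774), and endothelial markers, led by Kdr over the 32 mice, for 4 and 3 of 5 (mean sums 208 and 289, 247 and 292). The part of these shifts in the lower levels of the 10 mRNAs was not tested.

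**Figure D2:**
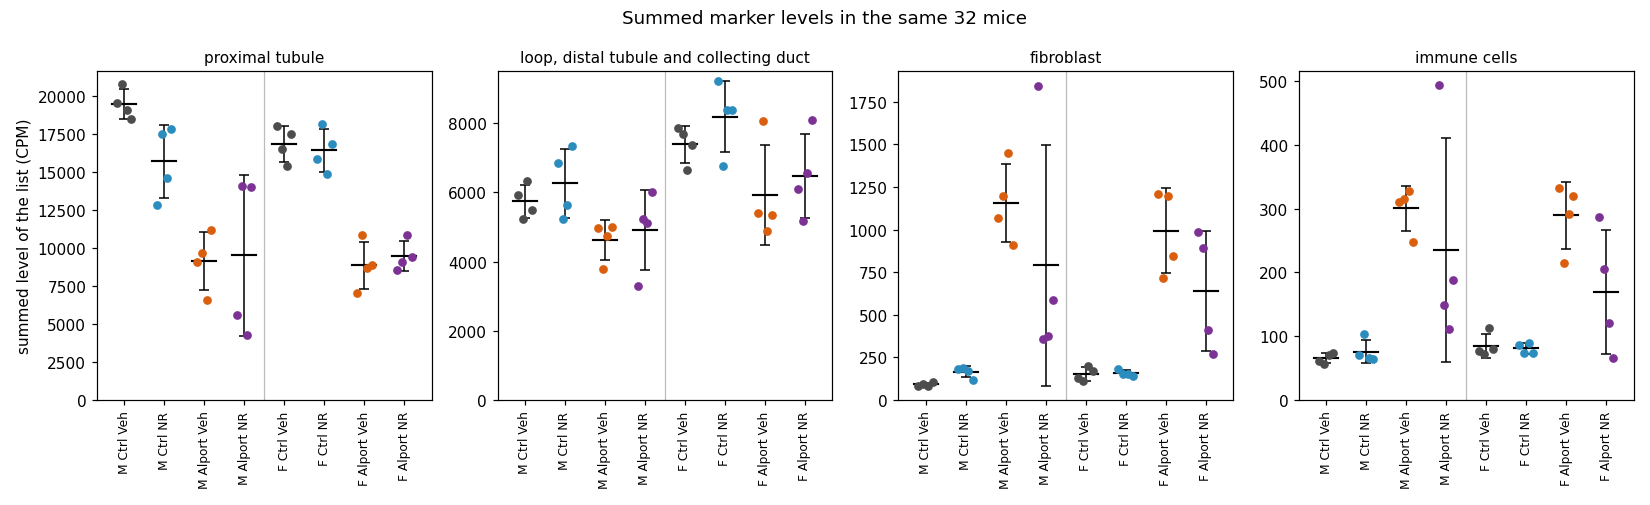
Summed level of 4 marker lists in CPM (y axis, from 0, a separate scale in each panel) in the 8 groups (x axis; M male, F female, Ctrl control, Veh vehicle). Points are single mice, bars are means of 4 mice and whiskers ± SD; male Alport NR replicate 1 has the highest fibroblast sum of all 32 mice, at 1841.

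NR was then compared with vehicle within Alport mice, the comparison that asks how the treatment bears on the diseased kidney. It uses the same vehicle-treated Alport mice as the genotype comparison, so the values are only set side by side. In males the estimates were above 0 for each of the 10, with a median log2 fold change of 0.43 against 0.01 over all genes, and 0 of the 10 passed. By edgeR 0% of all genes were called higher (0 of 15500). At an unadjusted p under 0.05 there were 5 of the 10, all higher, beside 422 of 15500 genes that were higher (785 in either direction). DESeq2 and limma-voom also called 0. The fit of all 32 mice called 1, Acaa2 (adjusted p = 0.0252).

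Acaa2 had the largest estimate in males, at 173, 500.0, 235 and 331 CPM on NR beside 172, 122, 156 and 176 on vehicle. NR replicate 1 lay among the vehicle-treated mice and the other 3 above all of them, which gave a log2 fold change of 0.98 ± 0.31 (adjusted p = 0.866). Eci1 followed at 84.0, 189.9, 92.1 and 131 on NR and 77.5, 63.0, 68.8 and 89.7 on vehicle, again with replicate 1 inside the vehicle range (log2 fold change 0.72 ± 0.26, adjusted p = 0.912). Slc25a20 was 76.7, 104, 75.2 and 76.0 on NR, each above the highest vehicle-treated mouse at 64.6 (log2 fold change 0.49 ± 0.14, adjusted p = 0.799). Such a gap was seen for 1.97% of all genes (305 of 15500). Acadl did not overlap either, with 271–419.7 CPM on NR and 216–265 on vehicle (log2 fold change 0.53 ± 0.17, adjusted p = 0.866). For the other 6 the groups overlapped: Hadha had an estimate of 0.33 ± 0.14, Acadvl 0.46 ± 0.25, Acadm 0.40 ± 0.31, Cpt2 0.39 ± 0.24 and Hadhb 0.29 ± 0.21. Cpt1a was 389.6, 559.9, 369 and 466 on NR and 452, 444, 379 and 436 on vehicle, and its estimate of 0.05 ± 0.17 fell on either side of 0 as single mice were left out (−0.08 without male Alport NR replicate 2). Without that mouse the values of Acaa2, Eci1, Acadvl, Acadm, Cpt2 and Hadhb were 0.65, 0.44, 0.28, 0.24, 0.20 and 0.13. Acadm had 0.60 without replicate 1 and 0.18 without replicate 4, and Hadhb 0.45 without replicate 1. For every member but Slc25a20 and Hadha, male Alport NR replicates 2 and 4 were the highest of the group and replicates 1 and 3 the lowest.

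The same 4 males differed in their markers. The proximal tubule sum was 5621, 14114, 4307 and 14043 CPM in replicates 1 to 4, the fibroblast sum 1841, 355, 375 and 587 and the immune sum 494, 149, 111 and 187. Replicates 2 and 4, with the higher levels of the pathway, also had the higher tubule sums, and their part in the spread was not tested. Against vehicle, 0 of 13 tubule, 0 of 7 fibroblast and 0 of 8 immune markers were called in Alport males (median log2 fold changes 0.02, −0.58 and −0.44), and likewise 0 in Alport females (0.05, −0.67 and −0.75), with female fibroblast sums of 988, 892, 413 and 267 on NR and immune sums of 287, 205, 121 and 65.6. Of all genes, 0 of 15500 were called lower in males and 14 of 15712 in females (0.0891%). Counts of 0 therefore do not show that the markers were unchanged.

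In Alport females NR was followed by higher Acaa2 and Eci1, 2 of the 10 mRNAs, where 0.388% of all genes were called higher (61 of 15712). Estimates were above 0 for the 10, with a median of 0.56 against 0.00 over all genes. At an unadjusted p under 0.05 there were 8, beside 1435 of 15712 genes that were higher (2627 in either direction). Acaa2 was 324, 332, 442 and 517 CPM on NR and 165, 209, 150.2 and 218 on vehicle. Every NR-treated female exceeded every vehicle-treated one, with a log2 fold change of 1.13 ± 0.19 (adjusted p = 0.0318). Eci1 was 128, 139, 125 and 164 on NR and 67.5, 74.6, 60.9 and 72.5 on vehicle, also without overlap (log2 fold change 1.02 ± 0.11, adjusted p = 0.00730). Eci1 was called in each of the 8 fits with 1 mouse left out, while Acaa2 was not called without female Alport vehicle replicate 1, 3 or 4 or female Alport NR replicate 3 (adjusted p = 0.141, 0.122, 0.0774 and 0.116), which left 1 member called, and 4 were called without female Alport NR replicate 4. The replicate block did not call Acaa2 either (adjusted p = 0.0573).

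Slc25a20, Cpt2, Acadvl and Acadl also did not overlap in females and did not pass by edgeR, which makes 6 of the 10 with every NR-treated mouse above every vehicle-treated one, beside 5.14% of all genes (807 of 15712). Slc25a20 was 87.8, 76.1, 90.5 and 129 CPM on NR and 54.8, 62.6, 58.1 and 62.0 on vehicle (log2 fold change 0.70 ± 0.15, adjusted p = 0.0916), and Cpt2 141, 145, 149.8 and 197 and 96.2, 111, 88.3 and 101 (0.68 ± 0.13, adjusted p = 0.0599). Female Alport NR replicate 4 was the highest for both. Acadvl and Acadl had estimates of 0.52 ± 0.12 and 0.60 ± 0.13 (adjusted p = 0.116 and 0.0982). DESeq2 called these 4 as well (adjusted p = 0.00219, 0.000152, 0.00345 and 0.00162), which gives 6 of the 10, and the fit of all 32 mice called 5, without Acadvl. Shares of all genes called by these other fits are not given, so the counts cannot be set against them. Hadha and Hadhb had estimates of 0.31 ± 0.13 and 0.41 ± 0.13 with 3 of 4 NR-treated mice above all vehicle-treated ones. Acadm was 494, 452, 488 and 467 on NR beside 285, 537, 298 and 317 on vehicle, so the 4 NR-treated mice lay between vehicle replicate 2 and the other 3 (log2 fold change 0.41 ± 0.20, adjusted p = 0.328). Without that vehicle-treated mouse the Acadm value was 0.68 (adjusted p = 0.0204). Cpt1a was 406, 338, 446 and 719 on NR, where replicate 4 stood far above the others (log2 fold change 0.39 ± 0.21, adjusted p = 0.372), and without female Alport NR replicate 4 the value was 0.12.

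The difference of the NR effect between the sexes in Alport mice was called for 0 of the 10, where 0% of all genes were (0 of 16189). By edgeR 0 of the 10 had an unadjusted p under 0.05 (363 of 16189 genes), and DESeq2 and limma-voom called 0. Estimates, female minus male, ran from −0.04 ± 0.19 for Hadha to 0.32 ± 0.28 for Cpt1a. Acaa2 had 0.12 ± 0.38 and Eci1 0.27 ± 0.30, so the calls in females and not in males do not show a difference between the sexes. Of the 25 other pathway genes, NR was followed by 0 calls in Alport males and 1 in Alport females, Decr1, the reductase for unsaturated acyl-CoA, with a log2 fold change of 0.85 ± 0.11 (adjusted p = 0.0102). Cpt1b had estimates of 0.51 ± 0.27 in males and 0.86 ± 0.38 in females, and Slc22a5 0.41 ± 0.26 and 0.37 ± 0.13 (adjusted p = 0.939, 0.295, 0.939 and 0.212).

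**Figure D3:**
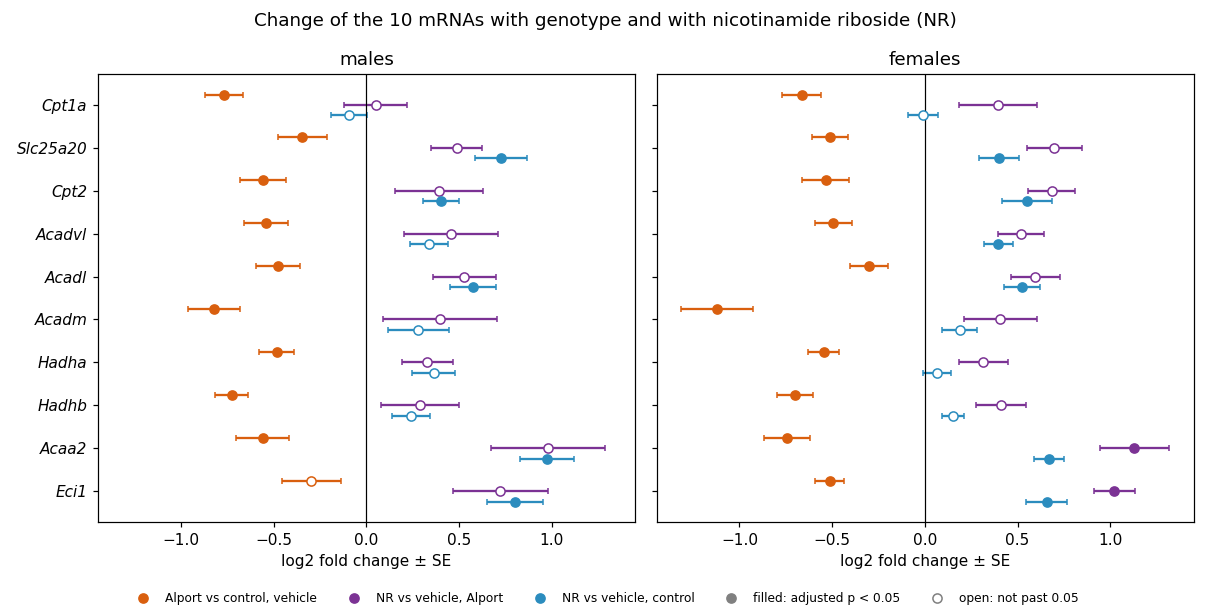
Log2 fold change (x axis) of each mRNA (y axis) in males and females for 3 comparisons, with whiskers of ± SE and 4 mice per group. Filled points have an adjusted p under 0.05 by edgeR; Acaa2 has the largest NR estimate of the 10 in both sexes and both genotypes, and Cpt1a in controls lies at −0.09 in males and −0.01 in females.

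NR was compared with vehicle in control mice to see the effect of the diet without the disease, and this shares the vehicle-treated controls with the genotype comparison. In male controls NR was followed by higher Slc25a20, Cpt2, Acadl, Acaa2 and Eci1, 5 of the 10, where 3.07% of all genes were called higher (451 of 14696), with a median log2 fold change of 0.38 against 0.00. Slc25a20 was 139, 119, 142 and 119 CPM on NR and 89.2, 68.2, 95.7 and 63.6 on vehicle. Acaa2 was 519.9, 394, 534 and 461 and 216, 249, 309 and 204, and Eci1 169, 164, 179 and 163 and 93.6, 84.0, 134 and 78.1. For these 3, and for Cpt2, Acadl and Acadvl, every NR-treated mouse lay above every vehicle-treated one, 6 of the 10 beside 7.35% of all genes (1080 of 14696). The log2 fold changes of Slc25a20, Acaa2 and Eci1 were 0.72 ± 0.14, 0.98 ± 0.15 and 0.80 ± 0.15 (adjusted p = 0.0237, 0.0102 and 0.0223). Cpt2 changed by 0.40 ± 0.10 and Acadl by 0.58 ± 0.12 (adjusted p = 0.0442 and 0.0322). Neither was called with the replicate block (adjusted p = 0.0808 and 0.0701), and Cpt2 was not called with all 32 mice (0.178). Acadvl did not pass by edgeR (0.34 ± 0.10, adjusted p = 0.0842), while DESeq2 called it and Hadha (adjusted p = 0.0191 and 0.0353). Hadha, Hadhb and Acadm had estimates of 0.36 ± 0.11, 0.24 ± 0.10 and 0.28 ± 0.16, and Cpt1a, at 685, 720.4, 746 and 723 on NR, had −0.09 ± 0.10.

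Of the 4 NR-treated males, 2 are the libraries whose Col4a3 level lay in the Alport range. With male control NR replicates 1 and 3 both left out, a choice made after seeing the data that leaves 2 NR-treated mice, 0 of the 10 were called and 96 genes in all. The log2 fold changes were then 0.58 for Slc25a20, 0.40 for Cpt2, 0.58 for Acadl, 0.80 for Acaa2 and 0.74 for Eci1, with adjusted p of 0.157, 0.176, 0.116, 0.0624 and 0.131. Those of the other members were −0.10 for Cpt1a, 0.27 for Acadvl, 0.50 for Acadm, 0.23 for Hadha and 0.12 for Hadhb. With 1 mouse left out at a time, 0 were called without male control vehicle replicate 1, and 1 without male control vehicle replicate 2 or 4 or male control NR replicate 1 or 3. With all 4 NR-treated males, 5 of 5 endothelial, 4 of 7 fibroblast, 1 of 7 tested immune and 1 of 3 tested hepatocyte markers were called higher on NR and 2 of 13 proximal tubule markers lower. Without the 2 libraries these counts were 1 of the endothelial and 0 of the others. With all 4 NR-treated males, 1.46% of all genes were called lower (215 of 14696). The 4 males had proximal tubule sums of 12879, 17518, 14636 and 17865 CPM and fibroblast sums of 182, 189, 171 and 119 on NR, and the part of these markers in the result was not tested.

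Female controls on NR had higher Slc25a20, Cpt2, Acadvl, Acadl, Acaa2 and Eci1, 6 of the 10, where 3.91% of all genes were called higher (584 of 14951), with a median of 0.40 against −0.01. Acaa2 was 529, 453, 533 and 526 CPM on NR and 284, 342, 333 and 317 on vehicle (log2 fold change 0.67 ± 0.08, adjusted p = 0.00158), and Eci1 150.4, 126, 194 and 169.7 and 98.5, 107, 104 and 94.8 (0.66 ± 0.11, adjusted p = 0.00784). Neither overlapped, nor did Acadl (343–449.6 and 252–309.5 CPM, log2 fold change 0.52 ± 0.10) or Acadvl (438–523 and 352–409.9, 0.40 ± 0.08), with adjusted p of 0.0116 and 0.0141. Slc25a20 (0.40 ± 0.11, adjusted p = 0.0498) and Cpt2 (0.55 ± 0.14, adjusted p = 0.0336) had 1 NR-treated mouse inside the vehicle range. Slc25a20 was not called by limma-voom (adjusted p = 0.0527), and the block did not call Slc25a20, Cpt2 or Acadvl (0.115, 0.0879 and 0.0591). Slc25a20 and Cpt2 were both not called without female control vehicle replicate 3 or 4 or female control NR replicate 1, 3 or 4, which left 4 members called. Hadhb, tightly grouped at 352, 339, 363 and 351 on NR and 306, 319, 314 and 319 on vehicle, did not overlap and did not pass by edgeR (log2 fold change 0.15 ± 0.06, adjusted p = 0.147), while DESeq2 called it (adjusted p = 0.0405). With Hadhb, 5 of the 10 lay wholly above the vehicle-treated mice, beside 8.53% of all genes (1275 of 14951). Hadha and Acadm had estimates of 0.06 ± 0.08 and 0.19 ± 0.10. Cpt1a was 597, 599.7, 562 and 619 on NR and 633, 675, 526 and 548 on vehicle, a log2 fold change of −0.01 ± 0.08. The fit of all 32 mice, in which Alport and control mice share 1 estimate of spread, called 0 of the 10 in female controls, with adjusted p of 0.114 for Acadl and 0.350 for Acadvl at the ends of the 6 that edgeR called in the 8 mice.

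Of the other pathway genes, 1 of 25 was called higher on NR in male controls and 14 in female controls. Decr1 was in both (log2 fold change 0.58 ± 0.11 and 0.54 ± 0.10, adjusted p = 0.0233 and 0.0124), but without the 2 libraries of low Col4a3 its male value was 0.66 and 0 of the 25 were called (adjusted p = 0.0627). The next in females were Acads, the short-chain dehydrogenase (0.54 ± 0.07), Aldh9a1 of carnitine synthesis (0.43 ± 0.06) and Etfdh, which passes electrons from the dehydrogenases to ubiquinone (0.41 ± 0.07), with adjusted p of 0.00249, 0.00361 and 0.0103. Slc22a5 had estimates of 0.03 ± 0.10 and 0.07 ± 0.09, and Cpt1b 0.57 ± 0.20 and 0.03 ± 0.10, none past the threshold, and in males without the 2 libraries these were 0.08 and 0.20. In female controls 2 of 13 proximal tubule markers were called lower and 0 of 7 fibroblast, 0 of 5 podocyte, 0 of 5 endothelial and 0 of 7 tested immune markers were called. The share of all genes called lower was 2.27% (340 of 14951). Of the loop, distal tubule and collecting duct markers 1 of 9 was higher and 1 lower, and 1 of 3 tested hepatocyte markers was higher.

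Whether NR acted differently in Alport and control mice was tested as an interaction in the 16 mice of each sex. In males 0 of the 10 were called, where 0% of all genes were (0 of 15800), and in females 0 of the 10 as well, with 0% (0 of 16064). At an unadjusted p under 0.05 there were 0 of the 10 in males (1398 of 15800 genes) and 1 in females, Acaa2 (1521 of 16064 genes), and DESeq2 and limma-voom called 0 in both sexes. Estimates, Alport minus control, ran in males from −0.26 ± 0.21 for Slc25a20 to 0.13 ± 0.20 for Cpt1a, with a median of −0.02. With the 2 libraries of low Col4a3 left out, Slc25a20 had −0.11 and Cpt1a 0.14, the count in males was 0 and the median 0.03. In females the 10 estimates were above 0, from 0.05 ± 0.16 for Acadl to 0.44 ± 0.21 for Acaa2 (adjusted p = 0.948 and 0.520), with a median of 0.23 against 0.00 over all genes, and Cpt1a had 0.38 ± 0.24. Cpt1b and Slc22a5 had −0.08 ± 0.36 and 0.36 ± 0.30 in males (0.30 and 0.31 without the 2 libraries) and 0.82 ± 0.42 and 0.28 ± 0.16 in females.

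How close NR-treated Alport kidneys came to vehicle-treated controls was read directly, a comparison that shares its groups with those before it. In males Cpt1a was still lower and was the 1 member called of the 10, where 21.2% of all genes were called in either direction (3199 of 15077). Its levels of 389.6, 559.9, 369 and 466 CPM lay under each control (log2 fold change −0.73 ± 0.18, adjusted p = 0.0229). The call was lost without male control vehicle replicate 1, 2 or 3 (adjusted p = 0.0672, 0.0738 and 0.0548), with values of −0.86 to −0.65 over the 8 mice left out. Hadhb was 135, 274, 191 and 233 on NR, below each control, and did not pass (log2 fold change −0.45 ± 0.21, adjusted p = 0.146), although the fit of all 32 mice called it (adjusted p = 0.00409). All 4 mice below every control, as for Cpt1a and Hadhb, was seen for 17.8% of all genes (2688 of 15077). Acadm had −0.44 ± 0.30 and Hadha −0.17 ± 0.15, and the others ran from −0.18 ± 0.23 for Cpt2 to 0.41 ± 0.27 for Eci1, each with overlapping groups. Without male Alport NR replicate 2 Eci1 had 0.13 and Acaa2 0.07, and Acadm had −0.26 without replicate 1 and −0.68 without replicate 4. Estimates of Acadl (0.04 ± 0.19), Acadvl (−0.10 ± 0.25) and Slc25a20 (0.13 ± 0.17) changed sign as single mice were left out. Intervals this wide do not show that levels were alike.

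In females 3 of the 10 were called, where 23.5% of all genes were (3615 of 15381): Acadm and Hadhb were lower than in vehicle-treated controls and Eci1 was higher. Acadm, at 494, 452, 488 and 467 CPM on NR and 916, 738, 837 and 721 in controls, had a log2 fold change of −0.75 ± 0.10 (adjusted p = 0.000877), with all 4 mice below every control. Hadhb, at 217, 227, 289 and 266 and 306, 319, 314 and 319, had −0.33 ± 0.10 (adjusted p = 0.0390). Eci1 had 0.47 ± 0.10 (adjusted p = 0.00755), the 4 NR-treated Alport mice lying above every control. Of all genes, 14.6% (2239 of 15381) lay wholly below the controls, as Acadm and Hadhb did, and 11.7% (1802 of 15381) wholly above. With all 32 mice neither Eci1 nor Hadhb was called (adjusted p = 0.0687 and 0.0826), and Hadhb was not called with the block (0.0715) or with no low-count filter (0.0605). The Hadhb call was lost without any 1 of the 4 controls and without female Alport NR replicate 1 or 2 (adjusted p = 0.0750 to 0.132), and without female Alport NR replicate 4 there were 5 calls, Cpt1a (−0.55) and Hadha (−0.37) being added. Acaa2 (0.35 ± 0.15) and Acadl (0.26 ± 0.12) had positive estimates that did not pass, Hadha (−0.27 ± 0.12) and Cpt1a (−0.31 ± 0.21) negative ones, and Slc25a20 (0.15 ± 0.16), Cpt2 (0.11 ± 0.15) and Acadvl (−0.02 ± 0.09) lay nearest 0, the sign of Acadvl changing with RLE scaling. Medians over the 10 were −0.14 in males and 0.04 in females, against 0.02 and −0.02 over all genes.

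The other pathway genes were set beside them. Of 25, 2 were called lower in NR-treated Alport males, Acat1 (−1.15 ± 0.35) and Acad9 (−0.81 ± 0.21), and 9 lower and 1 higher in females, with medians of −0.48 and −0.22. The share of all genes called lower was 6.81% in males (1026 of 15077) and 11.6% in females (1786 of 15381). The share called higher was 14.4% (2173 of 15077) and 11.9% (1829 of 15381). In females Slc22a5 had −0.66 ± 0.11 (adjusted p = 0.00261), Acad10 −0.62 ± 0.06 and Acad9 −0.56 ± 0.08, both of the acyl-CoA dehydrogenase family, and Cpt1c was the 1 higher (1.06 ± 0.32). Slc22a5 in males had −0.69 ± 0.26 (adjusted p = 0.0824), and Cpt1b −0.22 ± 0.25 in males and −0.27 ± 0.31 in females. Proximal tubule markers were called lower for 5 of 13 in males and 10 of 13 in females, and fibroblast markers higher for 6 of 7 in each sex. Podocyte markers were higher for 5 and 4 of 5, endothelial for 4 and 4 of 5, immune for 5 of 7 tested in males and 4 of 8 in females, and the loop, distal tubule and collecting duct list had 1 and 0 of 9 lower. Of 3 tested skeletal muscle markers 1 was lower in males and 0 in females, and of 3 tested hepatocyte markers 1 was higher in each sex and 1 lower in females, and the part of these shifts was not tested.

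Female and male vehicle-treated controls were compared to see the baseline. Cpt1a and Acadl were lower in females and Hadha and Acaa2 higher, 4 of the 10, where 31.7% of all genes were called in either direction (4756 of 14990), with a median log2 fold change of 0.06 against 0.02. Cpt1a had a log2 fold change of −0.35 ± 0.10 and Acadl −0.34 ± 0.11 (adjusted p = 0.0193 and 0.0387), Acadl being the 1 member whose groups did not overlap (females wholly below males for 18% of all genes (2704 of 14990)). Hadha had 0.31 ± 0.09 and Acaa2 0.41 ± 0.12 (adjusted p = 0.0239 and 0.0209), with 3 of 4 females above every male for each. Cpt2 (−0.35 ± 0.13) and Acadvl (−0.19 ± 0.09) did not pass by edgeR (adjusted p = 0.0610 and 0.110), Cpt2 being called by DESeq2, with the block and with no low-count filter (0.0282, 0.0421 and 0.0473), and Slc25a20, Acadm, Hadhb and Eci1 had estimates of 0.16, 0.04, 0.11 and 0.08. The fit of all 32 mice called 0 of the 10, and leaving out single mice gave 1 to 4 calls: 1 without female control vehicle replicate 4 and 2 without male control vehicle replicate 1 or 2 or female control vehicle replicate 2 or 3. The Hadha call was lost without male control vehicle replicate 1, 2 or 4 or female control vehicle replicate 2, 3 or 4, Acaa2 without male replicate 1 or 4 or female replicate 2, Cpt1a without male replicate 2 or female replicate 3 or 4, and Acadl without male replicate 3 or female replicate 1, 2 or 4. Calls were gained for Eci1 without male replicate 3 (0.27, adjusted p = 0.0283) and for Cpt2 without male replicate 4 (−0.41, adjusted p = 0.0498) or female replicate 2 (−0.46, adjusted p = 0.0198). Of the other pathway genes 14 of 25 were lower in females and 2 higher, Acat1 (−1.003 ± 0.07), Crot, the peroxisomal carnitine acyltransferase (−0.97 ± 0.13), and Acads (−0.79 ± 0.07) on the lower side and Acacb, which makes malonyl-CoA at mitochondria (0.62 ± 0.08), and Cpt1b (0.59 ± 0.08) on the higher. The share of all genes called higher in females was 15.9% (2386 of 14990) and called lower 15.8% (2370 of 14990). Podocyte markers were called higher in females for 5 of 5, fibroblast for 5 of 7, loop, distal tubule and collecting duct for 4 of 9, endothelial for 3 of 5 and immune for 1 of 6 tested, and proximal tubule markers higher for 2 and lower for 4 of 13. Of those tested, 1 of 3 skeletal muscle markers was lower and 1 of 3 hepatocyte markers higher and 1 lower, and the part of these differences was not tested.

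The markers fixed for neighbouring tissues gave few tested genes. In the genotype comparison, males and females, 0 and 1 of 7 adipocyte, 3 and 3 of 5 skeletal muscle and 1 and 1 of 4 adrenal markers were tested, and 0 of these were called. Hepatocyte markers, of which 3 of 5 were tested, were called higher for 1 and lower for 1 in males and higher for 2 and lower for 1 in females, Serpina1a being the most abundant over the 32 mice and Ttr in these 4 groups. The hepatocyte sum was the largest of these lists, from 86.7 CPM in female Alport NR replicate 4 to 402 in male control NR replicate 1. The highest adipocyte sum was 10.9 CPM, in female control NR replicate 3, where Ucp1 (52 counts) was above Plin1 (45), the most abundant over the 32 mice. Skeletal muscle, led by Acta1, reached 20.1 in a male control and adrenal cortex, led by Star, 6.79 in a male Alport NR mouse.

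How the 10 mRNAs moved among themselves was described by deviations of log2 CPM from the group mean over 32 mice, which removes the group differences, with no test. All 45 pairs of members had a positive Pearson r, from 0.309 (Slc25a20 and Acadm) to 0.921 (Hadhb and Acaa2), with a median of 0.708. Spread was unequal, with an SD of the mean log2 CPM of 0.41 in male Alport NR mice and 0.04 to 0.21 in the other groups. The male Alport NR mice can therefore weigh heavily in these r, and no r for pairs of other genes is given beside them. Acadvl followed the mean of the other 9 most closely (r = 0.927), and Cpt1a least (r = 0.637), just under Acadm (0.660). Among 16459 other genes ranked by r with the mean of the 10, the 6 most alike were Ech1 (0.914), Etfdh (0.900), Crat (0.898), Aldh9a1 (0.897), Tmbim6 (0.877) and Atp5a1 (0.876). Among the other pathway genes Decr1 ranked 7 and Slc22a5 100, while Cpt1c had r = −0.58.

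What the genes share in position and sequence was read from GENCODE (release M21) and RefSeq annotation of build GRCm38. Hadha and Hadhb lie head to head on chromosome 5, Hadha on the minus strand at chr5:30118304-30155162 and Hadhb on the plus strand at chr5:30155248-30184593, with 85 bases between them. Their start regions overlap, so the windows of 250 bases before to 50 after each start share 228 bases at chr5:30155003-30155230. That shared stretch is shown because it is common to both genes, whose mRNAs were lower in Alport than in control mice on vehicle in both sexes, like most of the 10. It is the plus strand, read in the direction of Hadhb. Capitals, from 30155163 on, mark the part between the annotated gene ends that lies in this stretch. The gap between the genes runs on to 30155247, past the end of the stretch at 30155230.
Hadha and Hadhb: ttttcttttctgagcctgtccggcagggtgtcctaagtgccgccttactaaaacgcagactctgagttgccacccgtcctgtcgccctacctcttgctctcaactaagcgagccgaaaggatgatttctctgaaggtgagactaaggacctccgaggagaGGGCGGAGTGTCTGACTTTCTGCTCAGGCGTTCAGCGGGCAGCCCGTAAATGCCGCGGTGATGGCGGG

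Counting limits touch Acadvl. Its exons share 1151 bases, 42.9% of its exonic length, with Dvl2 on the opposite strand, and whether counting used the strand was not found in the sources used here, so reads there cannot be told apart. Dvl2 was counted at 16.2–22.7 CPM in the group means, against 258 or more for Acadvl, and had log2 fold changes of 0.29 ± 0.13 and −0.01 ± 0.08 between Alport and control males and females. Hadha shares 75 bases, 0.859% of its exonic length, with Garem2 on the opposite strand.

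Promoter windows from RefSeq (GRCm38.p6) were at hand for 9 of the 10, all but Acaa2. They were searched on both strands for AGGTCA, the core of many nuclear receptor response elements, which 16.3% of 32851 promoters of the same length hold. It was found in 3 of the 9, Cpt1a, Acadvl and Acadm. The longer TCAAGGTCA, which contains AGGTCA, was in 0 of 9 (0.423% of promoters), and a pair of AGGNCA letters in the same direction with 1 base between, which can overlap an AGGTCA, in 0 of 9 (0.381%). A match only describes letters, and a missing match concerns this window only. The 3 windows with a match are printed 5′ to 3′ on the gene's strand with the matched letters, in either direction, in capitals, to show where they lie: position −94 from the start on the reverse strand in Cpt1a (chr19:3323051-3323350, plus strand), −87 on the gene's strand in Acadvl (chr11:70015379-70015678, minus strand) and −249 on the reverse strand in Acadm (chr3:153944594-153944893, minus strand).
Cpt1a: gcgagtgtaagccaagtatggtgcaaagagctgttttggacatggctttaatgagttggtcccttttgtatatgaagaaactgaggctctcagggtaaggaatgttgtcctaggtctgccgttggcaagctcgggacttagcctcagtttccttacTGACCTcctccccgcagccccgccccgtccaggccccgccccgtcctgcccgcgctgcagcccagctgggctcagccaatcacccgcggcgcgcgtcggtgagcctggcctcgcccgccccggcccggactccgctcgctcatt
Acadvl: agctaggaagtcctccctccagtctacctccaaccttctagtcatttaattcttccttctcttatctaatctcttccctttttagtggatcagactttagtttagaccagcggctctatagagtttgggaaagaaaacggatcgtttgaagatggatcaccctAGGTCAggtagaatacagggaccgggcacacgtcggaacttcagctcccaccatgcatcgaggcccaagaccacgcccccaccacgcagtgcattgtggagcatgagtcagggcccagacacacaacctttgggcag
Acadm: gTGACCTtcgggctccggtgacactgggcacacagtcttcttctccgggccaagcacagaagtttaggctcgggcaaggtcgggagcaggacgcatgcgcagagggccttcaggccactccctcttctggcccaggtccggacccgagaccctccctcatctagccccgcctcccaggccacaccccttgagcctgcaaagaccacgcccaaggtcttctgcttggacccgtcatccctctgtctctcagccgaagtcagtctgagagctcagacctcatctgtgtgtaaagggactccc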

How the data were processed

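Kidney cortex poly(A) RNA of 32 mice was sequenced, and the authors processed the reads. They deposited counts by gene symbol, from which every value here starts, and a log10 form of the counts, which was only checked against them. The paper names BioJupies for alignment and processing, and the submitters' processing notes give the build mm10. The annotation and the strand of counting were not found in the sources used here. In R 4.3.3, genes were tested with edgeR 4.0.16 (filterByExpr with a minimum count of 10, TMM, quasi-likelihood F test), 1 fit across all genes per comparison with its 8 mice, or 16 for interactions, and Benjamini-Hochberg adjustment at 0.05. The SE is the absolute log2 fold change divided by the square root of F. Alternatives were DESeq2 1.42.0, limma-voom (limma 3.58.1), RLE scaling, no filter, all 32 mice in 8 groups, a replicate block, each mouse left out, and, added after seeing the data, male control NR replicates 1 and 3 left out together. The code was tested on simulated data. Named genes are the 10 members in every comparison, called other pathway genes up to the 4 with the largest absolute log2 fold change, Cpt1b and Slc22a5 always, the 6 genes most like the members, and the most abundant gene of each marker list. The members and lists were chosen with earlier results of these data known. Likeness is Pearson r over 32 mice of log2 CPM (prior count 2) as deviations from the group mean. No library was left out of the results as given.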

Additional observations from a re-analysis of the deposited data

Results flagged for a closer look

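For each gene and group, the gap between an end mouse and its neighbour was divided by the whole range of the 4 mice. The ratio passed the tabled Dixon value for 4 mice in 6 of 80 groups, and about 1 in 20 would pass by chance. Slc25a20 was high in male Alport NR replicate 2 (104 CPM, ratio 0.9497). Cpt2 was high in female Alport NR replicate 4 (197 CPM, ratio 0.837). Male control vehicle replicate 3 was high for Acadl (447 CPM, ratio 0.849) and Hadhb (331 CPM, ratio 0.870). Acadm was high in female Alport vehicle replicate 2 (537 CPM, ratio 0.875). Acaa2 was low in female control NR replicate 2 (453 CPM, ratio 0.906).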

How the results depend on the processing

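Counts of members called moved in these other fits, and the cause was not tested. They have no share of all genes called beside them, so whether such a fit called more genes in general is not shown. With all 32 mice in 8 groups, NR against vehicle called 1 of the 10 in Alport males, 5 in Alport females and 0 in female controls, while NR-treated Alport mice against vehicle-treated controls gave 2 in males and 1 in females, and female against male vehicle-treated controls gave 0. The same fit gave 4 for NR against vehicle in male controls. DESeq2 called 6 for NR against vehicle in Alport females, 7 in male controls and 7 in female controls, and 5 for female against male controls. Limma-voom called 8 for Alport against control males and 5 for NR against vehicle in female controls. The replicate block left 3 for NR against vehicle in male controls, 1 in Alport females and 3 in female controls, and gave 2 for NR-treated Alport females against controls and 5 for female against male controls. With no low-count filter there were 3 for NR against vehicle in Alport females, 2 for NR-treated Alport females against controls and 5 for female against male controls. Male control NR replicates 1 and 3 left out together, an alternative added after seeing the data, left 0 for NR against vehicle in male controls.

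Leaving out 1 mouse at a time, the lowest and highest number of the 10 called was 8 to 9 for Alport against control males on vehicle and 9 to 10 for females. For NR against vehicle it was 0 to 0 in Alport males, 1 to 4 in Alport females, 0 to 5 in male controls and 4 to 6 in female controls. NR-treated Alport mice against vehicle-treated controls gave 0 to 1 in males and 2 to 5 in females, female against male vehicle-treated controls 1 to 4, and each of the 4 interactions 0 to 0.

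A sign changed in at least 1 fit for 20 of 144 gene results, of which 0 had an adjusted p under 0.05 with every mouse in. For each of the 4 interactions only 2 of the 10 members, those with the lowest and the highest estimate, were followed beside Cpt1b and Slc22a5, so signs of the other 8 were not checked. Log2 fold changes of the 20 results with a changed sign, lowest to highest with 1 mouse left out, follow. For NR against vehicle in Alport males this was Cpt1a at −0.0796 to 0.133. For NR against vehicle in male controls this was Slc22a5 at −0.0215 to 0.0972. For NR-treated Alport males against vehicle-treated male controls these were Slc25a20 at −0.00685 to 0.222, Acadvl at −0.282 to 0.0622 and Acadl at −0.0691 to 0.157. For the NR by genotype interaction in males these were Cpt1a at −0.00754 to 0.210 and Cpt1b at −0.364 to 0.179. For NR against vehicle in female controls these were Cpt1a at −0.0625 to 0.0560, Cpt1b at −0.0411 to 0.0958 and Slc22a5 at −0.00475 to 0.115. For NR-treated Alport females against vehicle-treated female controls these were Slc25a20 at −0.00174 to 0.270 and Acadvl at −0.0494 to 0.0684. For the NR by genotype interaction in females this was Acadl at −0.0263 to 0.132. For female against male vehicle-treated controls these were Acadm at −0.0363 to 0.145, Eci1 at −0.0157 to 0.266 and Slc22a5 at −0.0358 to 0.0848. For the genotype by sex interaction this was Slc22a5 at −0.0511 to 0.182. For the NR by sex interaction in Alport mice these were Hadha at −0.141 to 0.0474, Cpt1b at −0.158 to 0.627 and Slc22a5 at −0.201 to 0.214. Outside those fits, Acadl was −0.0253 for NR-treated Alport against control males with all 32 mice, Acadvl was 0.00588 by DESeq2 and 0.00585 with RLE scaling in the same comparison of females, and Slc22a5 was −0.0124 for female against male controls with all 32 mice and 0.0139 for the NR by sex interaction with the block. Cpt1b was 0.298 for the NR by genotype interaction in males with the 2 mice left out.

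Replicate numbers were taken not to pair mice across groups. Over 36 pairs of mice with the same number in 9 comparisons, the correlation was −0.167 to 0.261, 5 were above 0.1, and 0 comparisons had every pair above 0.1. A call lost with the block is not a smaller effect.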
